A study of Mus musculus with 8 samples.

Results

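Dbp, Tef and Hlf (the PAR bZIP transcription factors), their competitor Nfil3, and the repressors Ciart, Bhlhe40 and Bhlhe41 were followed through RNA sequencing of mouse dorsal root ganglia, where the cell bodies of the body's sensory neurons lie. These 7 genes were picked by gene symbol out of 40800 gene identifiers in the deposited table. The choice was made with results of the comparison between mutant and wild-type mice in view, so the group differences of the 7 genes are given as a description, without a test. The control group consisted of 4 samples from mice labelled C57BL/6, and the mutant group of 4 samples from mice on the C57BL/6 background. The mutant mice carry a Tmem184b gene trap, an insertion that cuts a transcript short, on both alleles. All mice were 6 months old and no treatment is named. The labels give neither the hour of dissection nor the sex, and do not say whether ganglia of several mice were pooled. P-values below measure the spread between these samples alone.

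PAR bZIP proteins bind a short element called the D-box and activate the genes that carry it. Nfil3 (E4BP4) binds the same element and represses. Dbp itself is switched on through E-boxes by the CLOCK and BMAL1 proteins of the circadian clock, so that its transcript climbs and falls each day in most tissues. Bhlhe40 (DEC1) and Bhlhe41 (DEC2) compete for E-boxes and dampen that drive, and Ciart (CHRONO) represses CLOCK and BMAL1 directly. Many of these transcripts therefore vary with the hour at which a tissue is taken.

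The promoters of 6 of the 7 genes were present in the RefSeq promoter table (build GRCm38.p6), in windows that run from 250 bases before to 50 bases after an annotated start. They gave 7 windows, Tef having 2 starts. E-boxes (CACGTG, a letter run that reads the same on both strands) lay in 4 of these 7 windows, from the 3 genes Ciart, Tef and Bhlhe41. Over all 32851 promoter windows, 7.15% held one. The stretches around them are printed because they show how the clock's own binding letters sit in the genes that repress it or act downstream of it. The stretch at the first Tef start lies wholly inside an annotated exon (30 of its 30 bases in GENCODE M21). E-boxes are in capitals and all strings run 5′ to 3′ on the strand of the gene. The Ciart stretch (minus strand, chr3:95882252-95882359) holds 3 E-boxes, whose first bases are at -116, -58 and -44 relative to the start.
Ciart: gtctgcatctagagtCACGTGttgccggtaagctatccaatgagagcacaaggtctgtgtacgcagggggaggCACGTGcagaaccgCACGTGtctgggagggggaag
Tef, first start (plus strand, chr15:81802534-81802563): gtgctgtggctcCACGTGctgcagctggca
Tef, second start (plus strand, chr15:81811264-81811293): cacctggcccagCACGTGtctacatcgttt
Bhlhe41 (minus strand, chr6:145865556-145865585): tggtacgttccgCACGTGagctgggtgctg

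The windows of Dbp, Hlf and Nfil3 held no E-box in these letters. Bases outside the windows, such as introns further on, were not searched, so E-boxes elsewhere in these genes are not excluded. A D-box was sought as TTATGTAA or TTACGTAA on both strands and was in none of the 7 windows, against 1.06% of all windows. Among the promoters of 16 core clock genes, of which 14 had a window, Per3 was the one with a D-box. Its stretch is printed because the D-box is the element that Dbp, Tef, Hlf and Nfil3 bind. It lies on the minus strand at chr4:151044804-151044882, and its 2 D-boxes are in capitals.
Per3: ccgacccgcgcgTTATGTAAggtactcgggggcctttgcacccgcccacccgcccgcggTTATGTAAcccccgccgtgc
The ROR element, sought as TAGGTCA or TGGGTCA, was found in Nfil3 (6.45% of all windows), and the cyclic AMP element TGACGTCA in Hlf (1.79%). A match of letters is a description and not evidence of binding.

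Levels are given as log2 CPM, the deposited value, where CPM is a gene's read number scaled to the library total, after a small prior is added. Library totals lay between 6183618 and 7983821 reads, and 1 read was worth 0.125 to 0.162 CPM. The trapped gene matched the labels, with Tmem184b between 7.36 and 7.51 log2 CPM among wild types and between 2.47 and 3.10 among mutants. Neuronal markers were abundant, 8 genes summing to 10440 to 11600 CPM among wild types and 10830 to 11570 among mutants. Whole ganglia mix neurons, glia and other cells, so fewer cells of a type and less RNA per cell cannot be told apart.

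To compare the 7 genes with each other, CPM was divided by the length of annotated exon. Tef was the most abundant, with 14.6 ± 0.93 CPM per kb among wild types, and 18.6 ± 0.85 among mutants (SD, n = 4). Bhlhe41 and Bhlhe40 followed in wild type, at 7.44 ± 0.75 and 5.02 ± 0.69 CPM per kb. Nfil3 at 2.39 ± 0.27, Dbp at 2.21 ± 1.12 and Hlf at 1.56 ± 0.24 CPM per kb lay within a spread of each other, neighbour by neighbour. Ciart was the scarcest, at 0.90 ± 0.45 CPM per kb, below Hlf by more than either SD. In the mutant Bhlhe40 (6.21 ± 0.43 CPM per kb) and Bhlhe41 (5.77 ± 0.85) lay within 1 SD of each other, and Dbp (4.25 ± 0.63) lay above Nfil3 (2.61 ± 0.58). Nfil3 and Hlf (2.5 ± 0.29) were within their spread there, and Ciart (1.73 ± 0.48) was again the lowest.

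**Figure D1:**
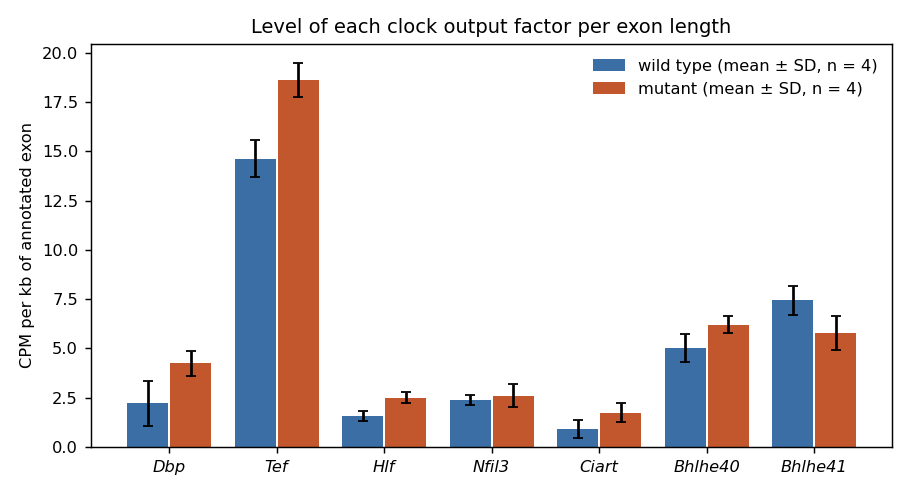
Mean CPM per kb of annotated exon for the 7 clock output factors, wild type in blue and mutant in orange, with bars for the SD over 4 mice. Tef stands highest in both genotypes, and Bhlhe41 is the single gene whose mutant mean is the lower one.

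Of the activators, Dbp (ENSMUSG00000059824; GRCm38 chromosome 7, 45705088 to 45710203, plus strand) differed most. Wild types 1, 3, 4 and 8 had 2.09, 2.84, 2.20 and 3.53 log2 CPM, from 25, 55, 29 and 89 reads. Mutants 1, 2, 3 and 4 had 3.73, 3.37, 3.79 and 3.87 log2 CPM, from 87, 62, 88 and 100 reads. The mutants were uniformly high, while the wild types were spread out, and wild type 8 lay above mutant 2. Wild types averaged 2.66 ± 0.66 log2 CPM and mutants 3.69 ± 0.22 (SD, n = 4), a difference of 1.02 (SE 0.255), or 2.03-fold. Without wild type 8 the difference was 1.31, and without wild type 1 it was 0.833. On the opposite strand Sphk2, a sphingosine kinase, shares 539 exon bases with Dbp and was itself higher in the mutant by 0.50 (limma adjusted p = 0.0169), from 275 to 407 reads in a wild-type library and 399 to 461 in a mutant one. Whether reads were counted by strand is not given in the sources used here, so reads of the shared bases cannot be told apart.

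Tef (ENSMUSG00000022389; chromosome 15, 81802421 to 81826863, plus strand) was the steadiest of the 7 genes. Wild types 1, 3, 4 and 8 had 6.88, 6.95, 6.73 and 6.83 log2 CPM, and mutants 1 to 4 had 7.21, 7.21, 7.10 and 7.26. Every mutant was above every wild type. The difference in log2 CPM was 0.35 (SE 0.062), or 1.27-fold, from 716 to 1071 reads per library. It moved to 0.256 when each sample was centred on the median of all tested genes, more than the spread between mice.

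Hlf (ENSMUSG00000003949; chromosome 11, 90336536 to 90390895, minus strand) measured 3.15, 3.56, 3.62 and 3.31 log2 CPM among wild types, against 3.97, 4.18, 3.91 and 4.26 among mutants, each in label order. These groups did not overlap either. The means were 3.41 ± 0.22 and 4.08 ± 0.16 log2 CPM (SD, n = 4), which differ by 0.67 (SE 0.135), or 1.59-fold. All 3 PAR bZIP activators thus had the higher mean in the mutant, as did 64.4% of all tested genes. Dbp was furthest apart in fold and Tef in CPM, where its means were 115 and 146.5.

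Nfil3 (ENSMUSG00000056749; chromosome 13, 52967209 to 52981073, minus strand), the repressor that shares the D-box, showed no such separation. Wild types 1, 3, 4 and 8 had 2.42, 2.10, 2.45 and 2.42 log2 CPM, and mutants 1 to 4 had 2.46, 2.49, 2.05 and 2.81. The groups overlapped over most of their range and the means differed by 0.10 (SE 0.188). The sign of this difference was not stable: it was -0.030 after quantile normalization and -0.014 without mutant 4.

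Set against Nfil3 within the same library, Dbp stood higher by 0.32 ± 0.72 log2 units among wild types and by 1.24 ± 0.37 among mutants (SD, n = 4). In wild types 1 and 4 Dbp was the lower of the pair, by -0.33 and -0.26, and in wild types 3 and 8 and all mutants it was the higher, by 0.74 to 1.74. These are differences in log2 CPM, not corrected for length.

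Ciart (ENSMUSG00000038550; chromosome 3, 95878503 to 95882251, minus strand) had levels of 0.49, 1.27, 0.82 and 1.89 log2 CPM among wild types 1, 3, 4 and 8, from 7, 17, 10 and 27 reads. Mutants 1, 2, 3 and 4 were at 2.46, 2.22, 1.68 and 1.78 log2 CPM, from 35, 27, 19 and 22 reads. Wild type 8 lay among the mutants and the other wild types below them. The means differed by 0.92 (SE 0.295), or 1.89-fold, and by 1.18 without wild type 8 and 0.708 without wild type 1. With so few reads, counting alone gives an SD of 0.35 log2 units in wild type, against 0.61 observed, and 0.27 in the mutant, against 0.37. The moderated scale understates fold changes of genes with counts this low.

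The DEC repressors went apart. Bhlhe40 (ENSMUSG00000030103; chromosome 6, 108660629 to 108666925, plus strand) measured 4.51, 4.31, 4.74 and 4.71 log2 CPM among wild types, against 4.89, 4.82, 4.80 and 5.01 among mutants, so the groups came close without overlapping. The difference was 0.31 (SE 0.105). Bhlhe41 (ENSMUSG00000030256; chromosome 6, 145858243 to 145865558, minus strand) measured 5.71, 5.42, 5.70 and 5.76 log2 CPM among wild types, against 5.13, 5.36, 5.53 and 5.08 among mutants. Its difference was -0.37 (SE 0.104), the one negative value among the 7 genes, and mutant 3 lay above wild type 3. Within each library Bhlhe40 was below Bhlhe41 by -1.08 ± 0.10 log2 units among wild types, and by -0.40 ± 0.30 among mutants (SD, n = 4). The 4 mutants, at -0.73 to -0.07, did not overlap the 4 wild types, at -1.19 to -0.96. Because these genes differed in opposite directions, the difference between them adds both shifts, and nothing is read from the lack of overlap. Like those against Nfil3, these values are not corrected for length. An antisense gene, Gm43909, shares 1280 exon bases with Bhlhe41 and was not analysed here.

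**Figure D2:**
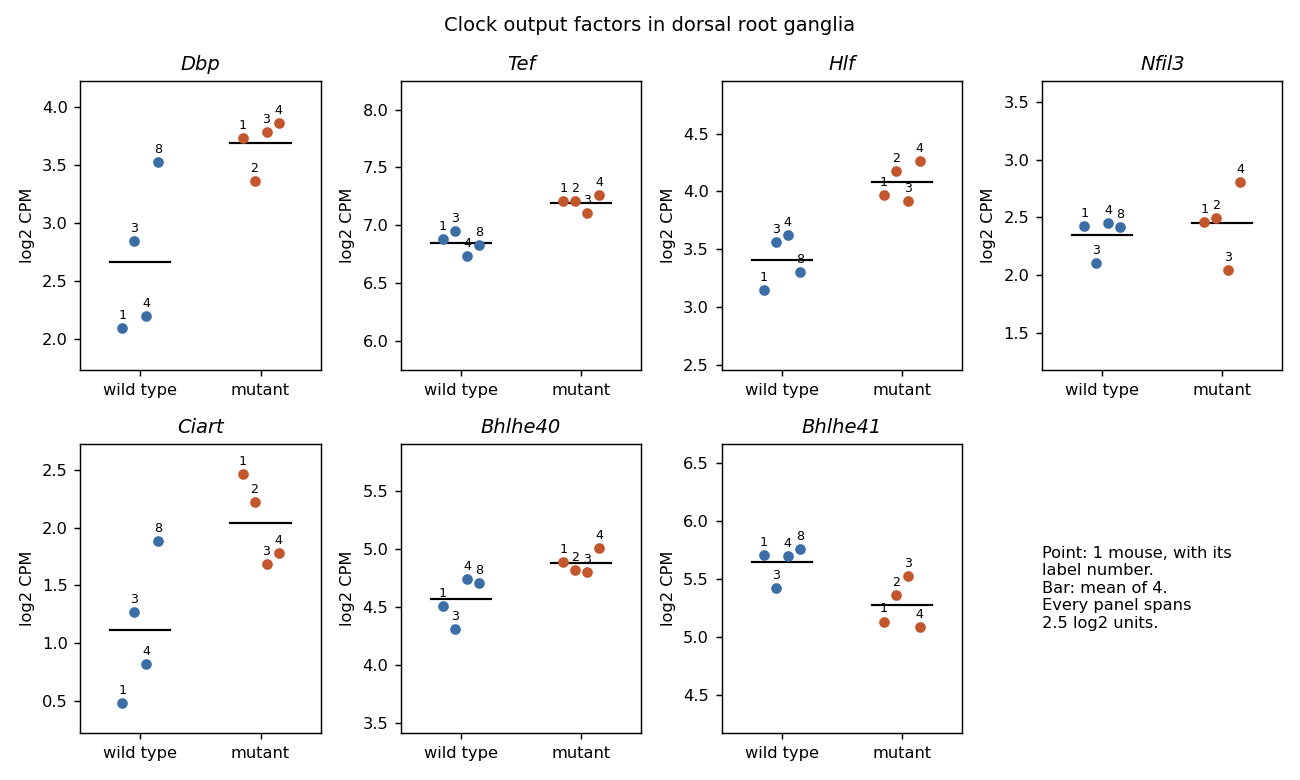
Log2 CPM of each clock output factor in each mouse, numbered as in its label, with a bar at the mean of 4 mice; every panel spans the same height. Dbp and Ciart show spread-out wild types with number 8 near the mutants, Tef and Hlf show separate groups, and Bhlhe41 is lower in the mutants.

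Of the 7 genes, 6 had the higher mean in the mutant, as did 64.4% of all tested genes. The median of the 7 differences was 0.35, where the median over all 15030 genes tested was 0.066. In the fit across all genes 3 of the 7 (Dbp, Tef and Hlf) had a limma adjusted p under 0.05 and a higher mean in the mutant, where 2.81% of all tested genes did. On the lower side the count was 0 of 7, against 2.64% of tested genes. At an unadjusted p under 0.05, limma gave 5 higher and 1 lower, and voom on the recovered reads gave the same 3, 0, 5 and 1 in that order. Of all 15030 tested genes, 3206 were under this unadjusted threshold by limma, in either direction. Counts at this threshold for the lists below stand against that same number. Without the variance trend the calls of Dbp, Tef and Hlf were all lost, with 0 of 7 called higher or lower and again 5 and 1 at an unadjusted p under 0.05. The groups did not overlap for 3 of the 7 (Tef, Hlf and Bhlhe40), against 12.4% of tested genes. Nothing is read from these shares, since the contrast was known when the genes were chosen.

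The spread among mice differed from gene to gene. Over all tested genes the median SD was 0.154 log2 units among wild types and 0.158 among mutants. Dbp had an SD of 0.66 among wild types, where counting gives 0.22, and 0.22 among mutants, where counting gives 0.16. Tef had SDs of 0.092 and 0.067, and Hlf of 0.22 and 0.16, where counting gives 0.16 and 0.14 for Hlf. Separate mice are expected to vary beyond counting error, and no test was made of these spreads.

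Wild types 1 and 4 were low and 3 and 8 high for both Dbp and Ciart. Arntl, which encodes BMAL1 and peaks at another time of day than Dbp, ran the other way among the wild types. Wild types 1 and 4 had 2.55 and 2.999 log2 CPM of it, and wild types 3 and 8 had 1.88 and 1.43. Over deviations from the genotype mean in all 8 mice, Pearson r of Dbp with Arntl was -0.70. Without wild types 1 and 8 it was -0.37. Arntl is the only core clock gene set beside Dbp in this way. In mutants 1 to 4 Arntl was at 1.84, 1.35, 1.68 and 2.05, near the lower end of the wild-type values. Among the mutants Dbp and Arntl did not run opposite: mutant 2 was lowest and mutant 4 highest in both. Dbp minus Arntl was -0.46 and -0.80 log2 units in wild types 1 and 4, 0.97 in wild type 3 and 2.10 in wild type 8. In the mutants it was 1.81 to 2.11, so wild type 8 lay inside the range of the mutants. The part of the hour of dissection, which the labels do not give, was not tested. Serial numbers in the column headers, whose meaning is not explained, run lower for every mutant than for every wild type. Anything they record cannot be told apart from genotype.

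**Figure D3:**
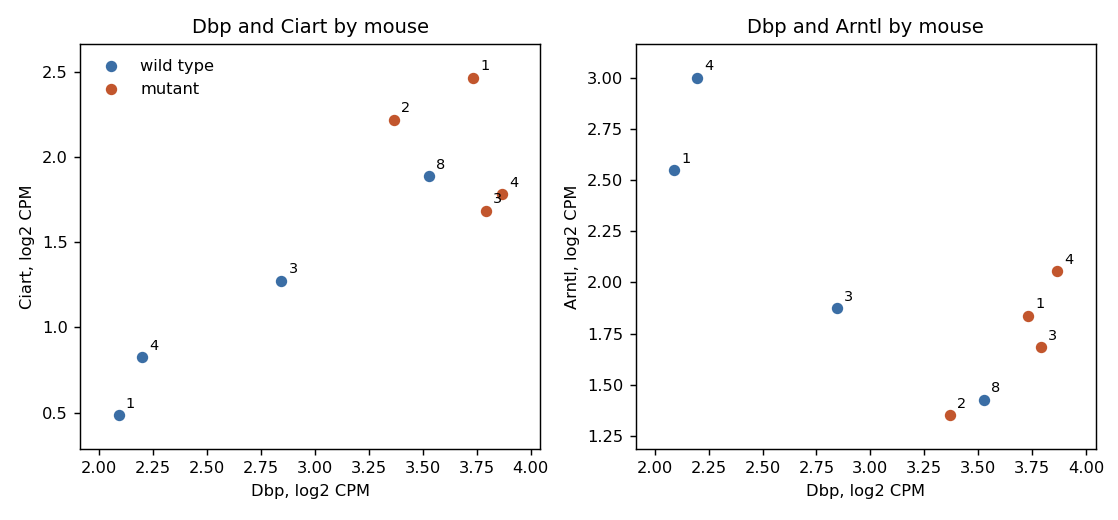
Log2 CPM of Dbp in each mouse (horizontal) against Ciart (left) and Arntl (right), wild type in blue and mutant in orange, numbered as in the labels. Wild types 1 and 4 have the lowest Dbp and Ciart and the highest Arntl, and wild type 8 sits beside the mutants in both panels.

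Whether the 7 genes moved together from mouse to mouse within a genotype was tested on deviations from the genotype mean, which the choice of genes did not use. There were 21 pairs over 8 mice, and p-values come from the exact two-sided test over all 576 permutations within genotypes, adjusted by Benjamini-Hochberg over the 21. No pair passed (0 of 21 at an adjusted p under 0.05; the lowest was 0.255). The median Pearson r was 0.079, and 12 of 21 were above 0. At an unadjusted p under 0.05 there were 2 pairs by Pearson's r and 1 by Spearman's rho. Nfil3 and Bhlhe40 had r = 0.70 (exact permutation p = 0.0122, adjusted 0.255) and rho = 0.76 (exact permutation p = 0.0226, adjusted 0.474). Without the 2 mice furthest from the median of Nfil3 their r was 0.84. Tef and Bhlhe41 had r = -0.75 (exact permutation p = 0.0382, adjusted 0.401) and rho = -0.64 (exact permutation p = 0.122, adjusted 0.993), and r = -0.77 without the furthest 2.

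Dbp and Ciart had r = 0.72 (exact permutation p = 0.108, adjusted 0.753) and rho = 0.57 (exact permutation p = 0.264, adjusted 0.993). This value rested on wild types 1 and 8, without which r was 0.083. Among the activators r was 0.14 for Dbp with Tef, -0.053 for Dbp with Hlf and 0.14 for Tef with Hlf. A relation between them was not detectable with 8 mice.

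The genes nearest to each factor were found by Pearson r of the same deviations over 8 samples, among tested genes with a mean of at least 2 log2 CPM. For Dbp they were Ten1 (r = 0.98), Cask (0.97) and Cnksr2 (0.96), and the most opposed were Rps15a (-0.98), Mccc1 (-0.97) and S1pr3 (-0.97). For Tef they were Cnot8, Dcun1d4 and Bpnt1, and for Hlf Mknk1, Sdpr and Csnk2a1. For Nfil3 they included Rcn1 and Pttg1ip, and for Ciart Pnrc1, Mthfd2l and Agpat9. Chkb, Wwtr1 and Plekhf1 were nearest to Bhlhe40, and Ppm1b, Gm26871 and Cep63 to Bhlhe41. With 8 samples and 11772 genes to choose from, correlations this high are the ends of a long list and carry no p.

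The core clock loop that drives these factors was then read from the fit across all genes, for 16 genes, all tested. Of these, 4 rose in the mutant, against 2.81% of all tested genes, and 0 fell, against 2.64%. This list and those below were also chosen with earlier results of these data known, so nothing is read from their shares. At an unadjusted p under 0.05 limma gave 5 higher and 1 lower, and voom also called 4 and 0. The median difference of the 16 was 0.029. The risers were the 3 Period genes, which encode the loop's delayed repressors, and Nr1d2 (REV-ERB beta), which represses Arntl and Nfil3.

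For Per3, wild types 1, 3, 4 and 8 had 4.54, 4.59, 4.22 and 4.60 log2 CPM, and mutants 1 to 4 had 5.53, 5.58, 5.75 and 5.53. It rose by 1.11 (SE 0.097; limma adjusted p = 1.70e-05), more than the gap between any 2 mice of a genotype. Per2 rose by 0.83 (SE 0.130; limma adjusted p = 0.00236), from 3.69 to 4.26 log2 CPM in wild types to 4.62 to 5.01 in mutants. Per1 rose by 0.46 (SE 0.089; limma adjusted p = 0.00865), also without overlap. Nr1d2 rose by 0.47 (SE 0.115; limma adjusted p = 0.0269), its groups overlapping at 5.40 log2 CPM. Per2 and Per3 passed in all 19 alternatives run and Per1 in 17. Nr1d2 passed in 11, its adjusted p reaching 0.135 without the variance trend. Its call ended on removal of wild type 1 (limma adjusted p = 0.0869) or 4 (0.0507), and of mutant 2 (0.0531), 3 (0.054) or 4 (0.0753).

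The other 12 core genes did not pass. Nr1d1 (REV-ERB alpha), a direct target of CLOCK and BMAL1 like Dbp, differed by 0.28 (SE 0.202; limma adjusted p = 0.459), with wild type 4 at 4.29 log2 CPM and the other wild types at 5.18 to 5.52. Without wild type 4 the Nr1d1 difference was 0.022. Arntl differed by -0.48 (SE 0.296; 0.376) and Npas2 by -0.26 (0.438). Arntl2 differed by 0.45 (0.203). Clock (0.066) and Rora (0.030) lay close to 0 and changed sign under median centring. Rorb (0.027, from 1 to 9 reads) changed sign there too, and Cry1 (-0.040) did so without wild type 8. Cry2 differed by -0.084, Csnk1d by -0.086, Fbxl21 by -0.22 and Csnk1e by -0.20, which passed under median centring alone (limma adjusted p = 0.0456).

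**Figure D4:**
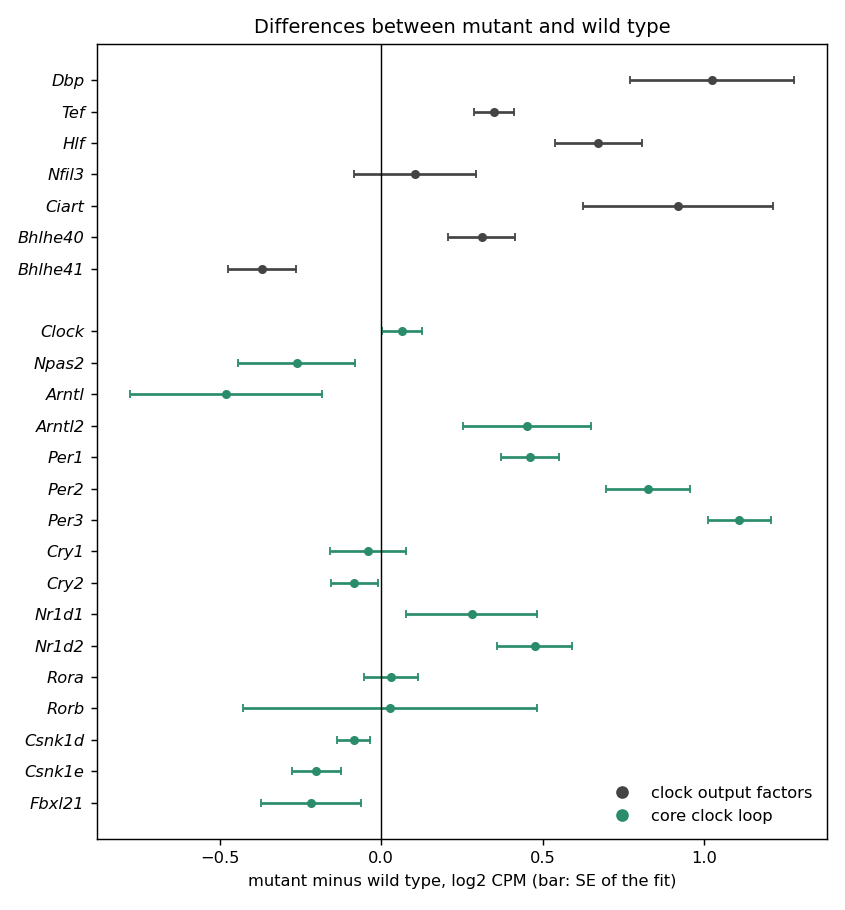
Mutant minus wild type in log2 CPM for the 7 clock output factors (grey) and 16 core clock genes (green), with bars for the standard error of the fit. Dbp, Ciart, Per2 and Per3 lie furthest to the right, and Arntl and Bhlhe41 lie to the left of 0.

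Among 18 further genes known as clock outputs or as targets of PAR bZIP factors, 14 were tested. Of these, 4 rose and 0 fell, against 2.81% and 2.64% of all tested genes, and the median difference was 0.21. At an unadjusted p under 0.05 limma gave 8 higher and 0 lower, and voom called the same number, 4. Usp2, a ubiquitin protease, rose by 0.74 (SE 0.122; limma adjusted p = 0.00335). Tsc22d3 (GILZ), which is also a glucocorticoid target, rose by 0.59 (SE 0.092; limma adjusted p = 0.00216). Wee1, a cell cycle kinase driven by E-boxes, rose by 0.69 (SE 0.155; limma adjusted p = 0.0181). Klf9 rose by 0.33 (SE 0.086; limma adjusted p = 0.0401). Usp2 passed in all 19 alternatives, Tsc22d3 in 18, Wee1 in 14 and Klf9 in 10. Klf9 was lost without wild type 1 (0.116), 3 (0.0572) or 4 (0.0808) and without mutant 1 (0.115) or 4 (0.108), and Wee1 without wild type 1 (0.0526), mutant 1 (0.0619) or mutant 2 (0.0518). Of the 14, 2 were called without wild type 1 and 2 without mutant 1. The enzymes that PAR bZIP factors control in liver and brain did not pass. Pdxk, pyridoxal kinase, differed by 0.088, Alas1 by -0.066 and Por, cytochrome P450 reductase, by 0.25 (limma adjusted p = 0.119). Abcb1a, also on the list, differed by 0.44 (limma adjusted p = 0.119). The unadjusted limma p was 0.014 for Por and 0.014 for Abcb1a. Cyp2a5 and Cyp7a1, liver enzymes, had 0 reads in every library.

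Families that resemble the factors were compared in the same way. In the C/EBP family, whose bZIP domains bind sites close to the D-box, 0 of 5 tested genes passed, with 0 at an unadjusted p under 0.05 by limma or voom. The largest differences there were 0.66 for Cebpb (limma adjusted p = 0.271), 0.13 for Cebpd and 0.13 for Cebpa. Of 10 tested Hes, Hey and Id genes, relatives of or partners to the DEC proteins, 1 rose and 0 fell by limma and by voom. At an unadjusted p under 0.05, 3 were higher and 0 lower. By limma 2.81% of all tested genes rose and 2.64% fell, and 3206 of 15030 had an unadjusted p under 0.05. The riser was Id3, by 0.59 (SE 0.119; limma adjusted p = 0.0107).

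Glucocorticoid hormone also follows a daily rhythm and acts on clock genes such as Per1. Of 12 genes of the glucocorticoid response, all tested, 7 rose and 0 fell by limma and by voom. Over all tested genes 2.81% rose and 2.64% fell by limma. At an unadjusted p under 0.05, 9 of the 12 were higher and 0 lower, and the median difference was 0.72. Mt2 and Mt1, metallothioneins, rose by 1.48 (limma adjusted p = 0.0336) and 1.02 (0.0142). Sult1a1 rose by 0.85 (limma adjusted p = 0.00531), Fkbp5, a brake on the receptor, by 0.83 (0.0118) and Sgk1 by 0.81 (0.00256). Pdk4 rose by 0.63 (limma adjusted p = 0.0229) and Ddit4 by 0.54 (0.00397). Neither hormone receptor passed: Nr3c1 differed by 0.013 and Nr3c2 by -0.0026. Without the variance trend 0 of the 12 passed by limma, with 8 higher at an unadjusted p under 0.05, and 4 passed without wild type 1 and 4 without mutant 1. Mt2 was lost without wild type 1 (0.105) or 4 (0.0536) and without mutant 1 (0.0968), 2 (0.0567) or 4 (0.0752), and Mt1 without wild type 1 (0.0519) or mutant 1 (0.0505). Pdk4 was lost without wild type 1 (0.0555) or 8 (0.0593) and without mutant 1 (0.078) or 4 (0.0678). The part of this list in the values of the clock output factors was not tested.

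Markers of other cells moved in part with genotype. By limma 2.81% of all tested genes were called higher and 2.64% lower, and 3206 of 15030 had an unadjusted p under 0.05. Skeletal muscle genes, from tissue that can cling to a dissected ganglion, summed over 6 genes to 3.49 to 34.8 CPM among wild types and 11.1 to 162 among mutants, with 0 of 5 tested called by limma or voom and 5 (limma) or 3 (voom) at an unadjusted p under 0.05. Satellite glia genes (6) summed to 1253 to 1323 CPM and 1394 to 1657, with 1 of 6 called higher, Glul (by 0.49). Hmgcs1 and Glul had by far the highest levels of the 6, with wild-type means of 9.50 and 8.59 log2 CPM against 6.13 for the next, Kcnj10. The sum therefore follows mainly these genes and is not read as an amount of satellite glia. All 6 had the higher mean in the mutant, though Fabp7 differed by 0.011 only. Schwann cell genes (6) summed to 2256 to 2968 and 2619 to 3134 CPM, with 0 called and 2 at an unadjusted p under 0.05 by limma and by voom. Fibroblast genes (5) summed to 524 to 963 and 706 to 1012 CPM, with 1 of 5 called higher. Macrophage genes (6) summed to 36.0 to 55.3 and 49.7 to 78.4 CPM, with 1 of 5 called higher. Endothelial (44.8 to 71.3 and 48.7 to 77.1 CPM), red blood cell (39.9 to 108 and 65.0 to 124 CPM) and adipocyte genes (2.15 to 5.04 and 0.46 to 10.2 CPM) had 0 called by limma or voom. Of these 3 lists the endothelial one had 1 gene at an unadjusted p under 0.05 by either tool, and the others 0. Of 8 neuronal markers 1, Avil, was called lower. No marker had 0 reads in every library, though Adipoq and Plin1, which define adipocytes, had at most 4 and 5. The part of these cells in the clock output values was not tested.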

How the data were processed

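The deposited values are log2 CPM, moderated by the authors with a prior count (2.0 reads on average here) added ahead of the logarithm. The submitters' processing notes name Salmon 0.11.1, DESeq2 and mm9, without their roles. The table had 41422 lines for 40800 identifiers, and repeats held identical values. Of the values, 100.0% came out as whole reads (tolerance 0.1), which gave reads and library totals.

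All 4 wild types were compared with all 4 mutants across all genes with limma 3.58.1 in R 4.3.3 (lmFit, eBayes with trend, two-sided, Benjamini-Hochberg). Tested were 15030 genes with log2 CPM above 0 in at least 4 samples, and an adjusted p under 0.05 was a call. Alternatives covered filter, prior, scaling, variance model, Xist as a covariate, voom, left-out samples and a replicate block. The fit was also run on simulated reads in which spread depended on level alone, so that run cannot judge the variance trend. Coordinates and exon lengths are from GENCODE M21 (GRCm38), which is not the build in the notes, and promoters from RefSeq GRCm38.p6. Other work used Python 3.11.15, pandas 2.3.3 and matplotlib 3.10.9.

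The 7 genes and the gene lists were chosen with earlier results of these data known. Named are the 7 genes, tested core clock genes, called genes of the other clock lists (or the 3 largest differences), and the 3 nearest genes per factor, of which a few are not reported here and, for the core clock, not counted. Some others were named after their values were seen: Sphk2, Pdxk, Alas1, Por, Abcb1a, Cyp2a5, Cyp7a1, Nr3c1, Nr3c2, Glul, Hmgcs1, Fabp7 and Gm43909.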

Additional observations from a re-analysis of the deposited data

Results flagged for a closer look

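In 70 groups of 4 values (7 clock output factors, core clock genes and called genes of the other lists, each genotype apart), 7 had 1 mouse standing well away from its group, and about 3.5 would by chance. Wild type 3 stood apart in Nfil3, at 2.10 log2 CPM against 2.42 to 2.45, in Bhlhe41, at 5.42 against 5.70 to 5.76, and in Arntl2, at 1.27 against 1.62 to 1.65. Wild type 4 stood apart in Per3, at 4.22 against 4.54 to 4.60, and in Sult1a1, at 3.24 against 3.66 to 3.75. Mutant 1 stood apart in Clock, at 6.54 against 6.72 to 6.75, and mutant 2 in Rora, at 4.95 against 5.18 to 5.22.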

How the results depend on the processing

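Of 105 values of the 7 factors under alternatives, 104 moved by less than 1 SD between mice, the exception being Tef under median centring (0.256). Leaving out 1 of 4 mice cannot move a difference by 1 SD, so the count says nothing for those fits. The yardstick is also wide: Dbp at 1.419 with the replicate block and Nfil3 at -0.030 after quantile normalization fell within it. With 1 mouse left out in each of 8 fits, Dbp ranged from 0.833 to 1.312, Ciart from 0.708 to 1.176, and Bhlhe41 from -0.453 to -0.304. Over all genes, 423 were higher and 397 lower. Median centring gave 204 and 706, no variance trend 67 and 75, and quantile normalization 271 higher. Leaving out 1 mouse gave 174 to 572 higher and 230 to 427 lower. Without the trend 0 of the 7 factors (3 as reported; 5 higher and 1 lower at an unadjusted p under 0.05 by limma), 2 core clock genes, 1 other clock output, 0 Hes, Hey or Id genes (3 at an unadjusted p under 0.05 by limma) and 0 glucocorticoid genes were called, and with the robust trend 4 glucocorticoid genes. With 1 mouse left out, 2 to 5 other outputs, 1 to 2 Hes, Hey or Id genes and 4 to 8 glucocorticoid genes were called. The causes were not tested. Signs changed for uncalled genes: under median centring Clock (-0.026), Rora (-0.062) and Rorb (-0.065), under quantile normalization Rora (-0.028) and Rorb (-0.11), and with 1 CPM added Rorb (-0.01). With 1 mouse left out Cry1 ranged from -0.105 to 0.006 and Rorb from -0.307 to 0.287.

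Wild types and mutants share the numbers 1, 3 and 4, and the labels do not say whether these pair the mice. Same-numbered deviations correlated at 0.081, 0.041 and 0.058. Mice of unlike number were not set beside them, so these values do not decide it. With a replicate block over these 6 mice 326 genes were higher and 345 lower, and without it 180 and 267. Over these 6 mice Dbp differed by 1.419, with the block and without it. Depth limits Ciart most, at 7 to 35 reads.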
